A study of Drosophila melanogaster with 12 samples.

Results

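The genes for the vacuolar H+-ATPase (V-ATPase) were followed in RNA sequencing libraries from the midguts of adult virgin Drosophila melanogaster. Members were all rows of the deposited count table whose gene symbol begins with Vha, which gave 30 of 17558 rows. Of these, 20 passed the filter on low counts and were tested with all 9686 genes that passed it. The symbols Vha26, Vha13 and VhaAC39-1 were not analysed here.

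The V-ATPase is a rotary proton pump that acidifies lysosomes, endosomes and secretory vesicles. In some epithelia it sits in the plasma membrane and drives acid secretion or ion transport. Its peripheral V1 sector splits ATP, and its membrane-embedded V0 sector carries the protons. Fly genomes hold several paralogs of many subunits, and the large V0 subunit a, made from the Vha100 genes, is the part through which protons pass and which directs a pump to a given membrane. In the fly midgut the acid region contains copper cells, which secrete acid, and Vha100-4 is one of the paralogs described there.

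There were 4 groups of 3 libraries: control females, dsxRNAi females, control males and dsxRNAi males. The gene dsx encodes transcription factors that exist in a male and a female form and set somatic sex, and dsxRNAi is an RNA interference construct against it. In the dsxRNAi groups the genotype was y[1] v[1] / w[*] with dsxRNAi over mex1-Gal4 and with tub-Gal80ts. Control animals had mex1-Gal4 over a wild-type chromosome, with UAS-GFP over tub-Gal80ts. All 4 groups therefore carried the mex1-Gal4 driver, which acts in the absorptive enterocytes, and the temperature-sensitive repressor of that driver. All animals spent 6 days at 18 degrees C with the driver repressed and 4 days at 29 degrees C with it released, and were taken 10 days after hatching. The controls lacked the dsxRNAi insertion and its y[1] v[1] stock background and expressed GFP, so the effect of the interference and that of these differences cannot be told apart. The number of animals pooled in a library is not given in the sources used here, and where replicates are not separate pools the p-values measure technical spread only.

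Total counts per library ran from 36212113 to 45068874. Levels are normalised CPM, a gene's count divided by the effective size of its library, which was set by edgeR's trimmed mean of M values (TMM), and levels of different genes are compared only per kb of annotated exon. Control and dsxRNAi males had 60.8 ± 8.58 and 39.8 ± 4.14 CPM of dsx itself, and control and dsxRNAi females 20.1 ± 1.36 and 19.5 ± 2.94 CPM (SD, n = 3). The enterocyte markers mex1, Myo31DF and nub were present in every library, with a summed level of 823 to 980 CPM. The 8 testis markers together reached at most 0.442 CPM in any library. The 6 Malpighian tubule markers summed to 4.33 to 10.8 CPM, with the highest sum in control female library 2. Of the 5 tested, 1 was called lower in dsxRNAi males and 1 lower in control females than in control males. Of all tested genes, 14.6 and 20.0% were called in these contrasts. The part of tubule RNA in the Vha levels was not tested. The 8 accessory gland markers summed to 105.8 CPM in control male library 1 and to at most 0.225 CPM in the other 11, so calls of Vha genes that rest on that library are also given without it. Leaving it out left 2 members called in males and 2 between control sexes. The tissue is whole midgut, in which fewer cells of a type and less RNA per cell cannot be told apart.

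The 30 genes spanned from among the most abundant transcripts of the midgut to none at all. Vha16-1, the proteolipid that forms the rotating c ring (2R, 6625242 to 6633090, minus strand), led with 4716 CPM on average over the 12 libraries and ranked 23 of the 9686 tested genes by CPM. Its level per kb was 1533 CPM per kb, and no library of any other Vha gene reached its lowest library. Next came the parts of the ATP-splitting head, Vha68-2, the catalytic subunit A, at 597 CPM per kb and Vha55, the nucleotide-binding subunit B, at 522 CPM per kb. The ranges of these 2 neighbours over the 12 libraries overlapped, but Vha68-2 was above Vha55 in each library.

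The remaining housekeeping parts lay within a narrower band of levels per kb. VhaAC45, an accessory protein that helps assemble the pump, stood at 454 CPM per kb, and VhaM8.9, now named ATP6AP2 and also an assembly factor, at 348 CPM per kb. The rotor parts Vha14-1 (subunit F) and Vha36-1 (subunit D) were at 326 and 294 CPM per kb, and VhaPPA1-1, the c'' ring subunit, at 318 CPM per kb. VhaM9.7-b, a small membrane subunit e, was at 211 CPM per kb. VhaSFD, the regulatory subunit H, was at 166 CPM per kb and Vha44, the subunit C that ties the 2 sectors together, at 145 CPM per kb. From Vha68-2 down to VhaM9.7-b, each gene in the order overlapped in range with its neighbour over the libraries. These ranges include shifts between libraries that the genes share, so overlap does not decide the order of neighbours. Vha55, for instance, was above VhaAC45 in each library. Genes further apart in the order can be separate. The lowest Vha68-2 library, at 505 CPM per kb, lay above the highest VhaM9.7-b library, at 237 CPM per kb. These 11 genes, the accessory genes and the most abundant paralog of each subunit other than a and d, are called the shared genes here.

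**Figure D1:**
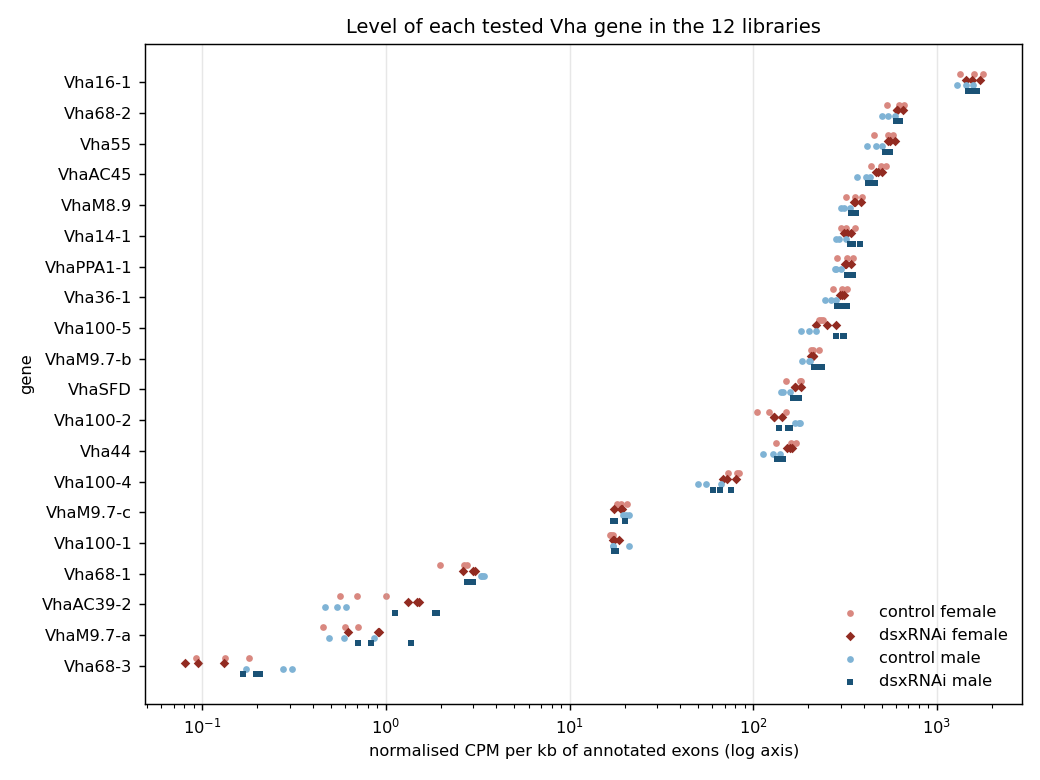
Level of each tested Vha gene (rows, ordered by mean level) in normalised CPM per kb of annotated exons on a log axis, with 1 point for each of the 12 libraries, coloured by group. Vha16-1 stands alone at the top near 1533 CPM per kb, and the other shared genes and 3 Vha100 genes fill the range below. Vha68-1, VhaAC39-2, VhaM9.7-a and Vha68-3 have means of 2.90 CPM per kb or less, with single libraries of up to 3.41 CPM per kb.

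For several subunits a single paralog supplied nearly all of the transcript. Vha68-2 made up 99.3% to 99.6% of the subunit A transcripts per kb in the 4 groups. Vha68-1 (2.90 CPM per kb) and Vha68-3 (0.170 CPM per kb) gave the rest. All 3 lie on 2L, where Vha68-3 (12978786 to 12981293) starts 178 bases after the end of Vha68-2 (12974322 to 12978607) on the same strand. Subunit e was less one-sided, with 90.3% to 92.1% from VhaM9.7-b and 7.54% to 9.36% from VhaM9.7-c by group. Among the genes of subunit d, VhaAC39-2 was the 1 member analysed, and its level was only 1.09 CPM per kb.

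A set of 10 genes did not pass the filter on low counts. Vha16-2, Vha16-3, Vha16-4, Vha100-3, Vha36-2 and VhaPPA1-2 had 0 counts in all 12 libraries, which allows a level of up to 0.0653 to 0.0886 normalised CPM for 3 counts in a library, depending on the library (counting error only). Vha16-5, VhaM9.7-d, Vha36-3 and Vha14-2 had counts, but never more than 4 in a library. Some of the undetected genes sit beside abundant relatives. VhaPPA1-2 (3R, 14899606 to 14900277) lies 2052 bases from VhaPPA1-1 on the same strand, and the latter held 14921 to 18856 counts per library.

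Subunit a was the one subunit whose transcript was split among several abundant paralogs. Vha100-5 (2L, 11738948 to 11744524, plus strand) was highest at 247 CPM per kb, then Vha100-2 (3R, 18390323 to 18399169, minus strand) at 146 CPM per kb. Vha100-4 (3R, 18386841 to 18389805, minus strand) followed at 69.5 CPM per kb and Vha100-1 (3R, 29131193 to 29137980, plus strand) at 17.7 CPM per kb. The ranges of Vha100-5 and Vha100-2 do not overlap over the 12 libraries, nor do those of Vha100-2 and Vha100-4 or of Vha100-4 and Vha100-1. Vha100-2 and Vha100-4 are neighbours, 517 bases apart on the same strand. An antisense RNA gene, asRNA:CR44144, overlaps an exon of Vha100-5 by 355 bases. The library kit keeps strand, but the strand setting of the counting is not given in the sources used here, so reads of such overlaps may be shared.

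Vha100-5 rose in dsxRNAi males. The control male libraries held 643, 587 and 529.6 CPM, and the dsxRNAi males 909, 829 and 896 CPM. In TMM-scaled CPM all 3 dsxRNAi male libraries lay above the other 9 libraries of the study. The margin was narrow, at 829 CPM against 824 CPM in dsxRNAi female library 2. The means were 587 ± 56.8 and 878 ± 42.9 CPM (SD, n = 3), a 1.50-fold difference (log2 0.58, 95% interval 0.36 to 0.81, edgeR adjusted p = 0.00304). The call held without control male library 1 (log2 0.65) and under scaling by library totals alone (log2 0.33).

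In females Vha100-5 was at 681, 668 and 703 CPM in controls and at 643, 824 and 739 CPM under dsxRNAi. The dsxRNAi female libraries spread over both sides of the control values, and the log2 difference was 0.10 (95% interval -0.12 to 0.33, edgeR adjusted p = 0.740). The female effect minus the male effect was -0.48 on the log2 scale (95% interval -0.79 to -0.16) and missed the threshold after adjustment (edgeR adjusted p = 0.168), while DESeq2 gave an adjusted p of 0.0309. Without control male library 1 it was -0.55 (edgeR adjusted p = 0.182). A difference between the sexes in the response of Vha100-5 was thus not established by the main test.

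Vha100-2 differed between the sexes in controls. Control females held 337, 486 and 392 CPM, and control males 579, 573 and 542 CPM. The female libraries varied widely but all lay below the males. The log2 difference of females minus males was -0.48 (95% interval -0.74 to -0.22, edgeR adjusted p = 0.0135), a level 1.39-fold higher in males. Leaving out control female library 3 ended the call (adjusted p = 0.0565), and without control male library 1 it was kept (log2 -0.46, adjusted p = 0.0486). Under dsxRNAi, females held 417, 465 and 418 CPM and males 497, 515 and 444 CPM, ranges that overlapped (log2 -0.16, edgeR adjusted p = 0.381).

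dsxRNAi males lay between the other groups for Vha100-2. Each of their libraries was below each control male library, but the log2 change of -0.22 (95% interval -0.48 to 0.04) did not pass the threshold (edgeR adjusted p = 0.247). Under library totals alone the same change was -0.47 (edgeR adjusted p = 0.00109). All genes then had a median of -0.27, and 33.0% of them were called. The interaction of sex and dsxRNAi was 0.32 (95% interval -0.05 to 0.68, edgeR adjusted p = 0.425). Under library totals it was 0.54 (edgeR adjusted p = 0.0250), where all genes had a median of 0.23.

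Vha100-4, one of the paralogs described in the acid region, was higher in control females than in control males. The control females held 199.6, 227 and 224 CPM, and the control males 182, 151 and 137 CPM. The groups did not overlap, and control male library 1 was the male nearest to the females. The log2 difference was 0.47 (95% interval 0.22 to 0.72, edgeR adjusted p = 0.0127), a level 1.39-fold higher in females. Without control male library 1 it was 0.59 (adjusted p = 0.00663), and without control male library 2 or 3 the call was lost (adjusted p = 0.0520 and 0.0531).

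Under dsxRNAi, Vha100-4 was at 188, 219 and 197 CPM in females and 207, 180.2 and 165 CPM in males. These ranges overlapped, and the log2 difference of 0.13 (95% interval -0.12 to 0.38) did not pass the test (edgeR adjusted p = 0.483). Neither dsxRNAi effect passed, at log2 -0.11 in females (edgeR adjusted p = 0.770) and 0.24 in males (95% interval -0.02 to 0.49, edgeR adjusted p = 0.195). Under library totals alone the male value was -0.01, and the difference between the sexes under dsxRNAi was 0.29 and called (edgeR adjusted p = 0.0403). The medians of all genes in these 2 contrasts were then -0.27 and 0.17, with 33.0 and 24.0% of them called.

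Among the 4 markers of copper cells and the acid region, lab, the homeotic gene that specifies copper cells, was the 1 called between control sexes. Control females had 23.0 ± 1.60 CPM of lab and control males 14.9 ± 2.28 CPM (log2 0.63, edgeR adjusted p = 0.00254, and log2 0.76 without control male library 1). The markers Ptx1 (log2 0.26, adjusted p = 0.115) and dve (log2 -0.05, adjusted p = 0.700) did not pass. Summed over the 4 markers, the control female libraries held 247 to 273 CPM and the control male libraries 219 to 258 CPM. The part of the number of copper cells in the Vha100-4 difference was not tested.

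Vha100-1, the paralog known for its role at synapses, varied least of the 4. The female libraries held 55.4, 56.9 and 54.8 CPM as controls and 56.8, 57.7 and 60.9 CPM under dsxRNAi. The male libraries held 56.8, 56.9 and 69.1 CPM as controls and 57.5, 58.6 and 58.6 CPM under dsxRNAi. One library, control male 3, stood above the others. No contrast passed the test with TMM scaling (edgeR adjusted p from 0.264 to 0.968). Under library totals alone its male change was called (log2 -0.32, adjusted p = 0.0312), where all genes had a median of -0.27. With TMM scaling its 95% intervals lay between -0.29 and 0.37 on the log2 scale over the 5 contrasts.

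**Figure D2:**
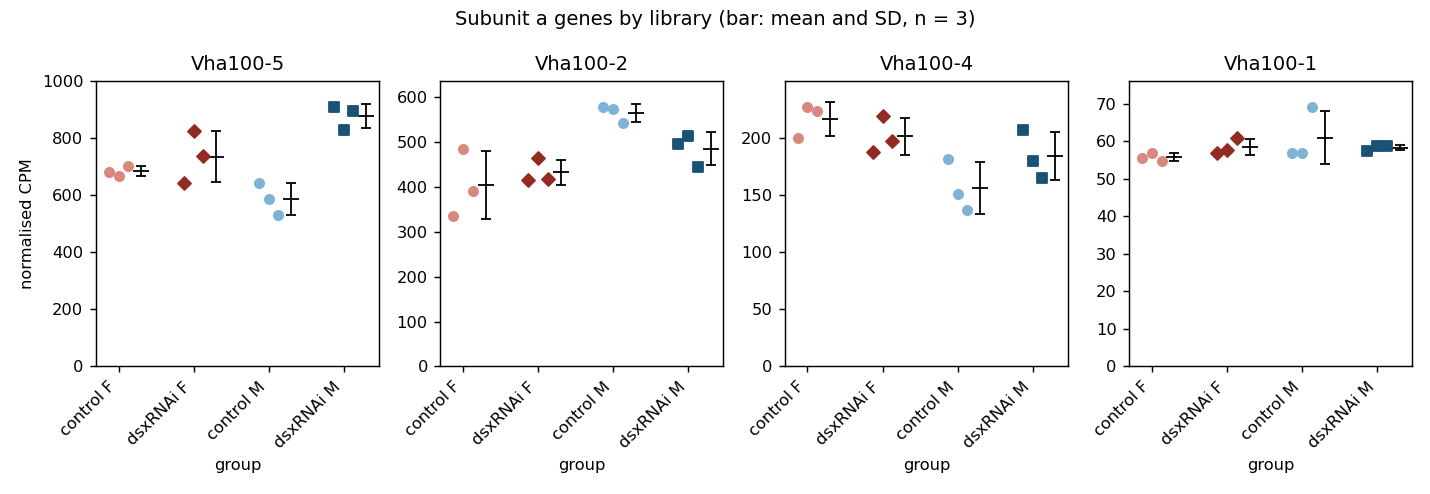
Normalised CPM (vertical axis, from 0) of the 4 detected Vha100 genes in each library, by group on the horizontal axis, with the group mean and SD (n = 3) as black bars. The dsxRNAi males are the highest group for Vha100-5, the control males are the highest for Vha100-2 and the lowest for Vha100-4, and Vha100-1 stays near 58 CPM outside 1 control male library.

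The make-up of subunit a was also compared as shares. The share of each paralog was computed per library from counts per kb, which needs no scaling between libraries. Vha100-4 supplied 17.1, 17.3 and 17.8% of subunit a transcripts in control females and 15.8, 15.3 and 15.2% in dsxRNAi females. Its share was 13.8, 12.2 and 11.9% in control males and 13.6, 12.5 and 11.6% in dsxRNAi males. Females of both genotypes lay above males of both genotypes without overlap.

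The Vha100-4 share was 4.77 percentage points higher in control females than in control males, and 2.90 points higher in dsxRNAi females than in dsxRNAi males. In females it was 1.95 points lower under dsxRNAi, and the 3 libraries of each group did not overlap. Each of these comparisons gave p = 0.1 in an exact two-sided permutation test, the smallest that 3 against 3 libraries allows. In males the means of 12.6 and 12.6% differed by less than the spread between libraries (exact permutation p = 0.9).

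The other shares were examined after their values had been seen and are given as a description. Vha100-2 supplied 37.1, 39.4 and 40.0% in the control male libraries. It supplied 24.4, 31.4 and 26.4% in control females, 29.7, 27.5 and 27.4% in dsxRNAi females and 27.6, 30.3 and 26.3% in dsxRNAi males. Vha100-5 supplied 45.6, 44.6 and 43.1% in control males, and from 47.7 to 58.7% in the other 9 libraries. All 3 control male libraries were above the other 9 for Vha100-2 and below them for Vha100-5. Put as a ratio, there were 1.15 Vha100-5 transcripts per kb for each of Vha100-2 in control males, and 1.91, 1.87 and 2.01 in control females, dsxRNAi females and dsxRNAi males. The dsxRNAi effect in males and the sex difference in controls share the control male libraries, so these are not independent observations of that group.

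**Figure D3:**
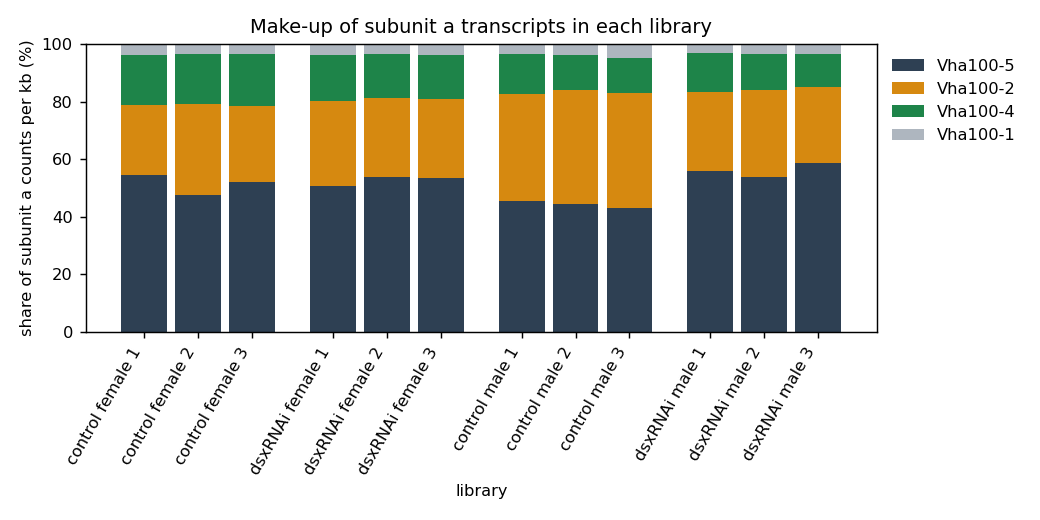
Share of each Vha100 gene in the subunit a transcripts of each library (stacked bars, percent of counts per kb, 12 libraries on the horizontal axis). The 3 control male libraries have the largest Vha100-2 share, 37.1 to 40.0%, and the Vha100-4 share is 15.2 to 17.8% in the female libraries and 11.6 to 13.8% in the male libraries.

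Over all 20 tested genes, 3 were called between control females and control males, where 20.0% of all tested genes were called. Vha100-4 was higher in females, a direction called for 10.7% of all tested genes, and Vha100-2 and Vha68-1 were lower, called for 9.27%. DESeq2 called 5 members, adding Vha44 and VhaAC45, both higher in females, where it called 23.7% of all genes it tested. Group ranges lay apart for 6 of the 20 members, against 37.4% of all tested genes. The shares by edgeR and by separate ranges lay a little below their backgrounds, and the DESeq2 share a little above. With 20 genes these counts do not set the members apart from all genes.

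None of the 11 shared genes was called between control sexes by edgeR, with 4 at an unadjusted p under 0.05 and 2 called by DESeq2. All 11 had a positive log2 difference of females minus males, from 0.12 to 0.28 with a median of 0.18, where 49.3% of all tested genes were positive. Control females and males had means of 624 and 512 CPM of Vha44 (log2 0.28, edgeR adjusted p = 0.0738), and of 978 and 813 CPM of VhaAC45 (log2 0.27, edgeR adjusted p = 0.0659). The largest difference that the 95% intervals of the shared genes allow was 0.51 on the log2 scale.

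These genes also varied together among libraries of 1 group. Control female library 1 was the lowest and library 2 the highest of its group for 11 of 11 shared genes. Control male library 1 was the highest and library 3 the lowest of its group for 11 of 11, and library 3 was the lowest of all 12 for 11 of 11. Their geometric mean in CPM was 607, 740.3 and 690 in the control female libraries, against 642, 598 and 555 in the control males. The scaling factor was 1.14 in control female library 1 and 0.956 in library 2, and its part in these shifts was not tested. Leaving out control female library 1 brought the members called to 7, with Vha44, VhaAC45, VhaM8.9 and VhaSFD added. Without control male library 2 or 3 there was 1, Vha100-2.

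Vha68-1, a minor subunit A paralog (2L, 13000770 to 13004107), was lower in control females. Control female libraries held 5.29, 7.42 and 7.11 CPM, and control males 8.83, 9.13 and 8.97 CPM, from 243 to 406 counts per library over all groups. The male libraries lay close together and above all females. The log2 difference was -0.44 (95% interval -0.70 to -0.18, edgeR adjusted p = 0.0201). Leaving out any of the 3 control male libraries ended the call, with adjusted p-values of 0.0528, 0.0644 and 0.0531. Under dsxRNAi the females held 7.96, 7.07 and 8.19 CPM and the males 7.44, 7.98 and 7.71 CPM, with the male values inside the female range (log2 0.01, edgeR adjusted p = 0.981). The change in males under library totals alone was called (log2 -0.47, edgeR adjusted p = 0.0118), where all genes had a median of -0.27.

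Under dsxRNAi no member differed between the sexes by edgeR, where 14.8% of all tested genes were called. Of the 20 genes, 2 had an unadjusted p under 0.05, Vha100-5 and Vha68-3, and DESeq2 called 0, against 18.6% of all genes it tested. Ranges lay apart for 5 of 20, against 35.7% of all tested genes. For the shared genes the log2 differences ran from -0.12 to 0.18 with a median of 0.03, 7 of 11 above 0. Under library totals alone the median was 0.19 with 11 of 11 above 0, where the median of all genes was 0.17. That scaling called Vha44, Vha55, VhaAC45 and VhaM8.9 among them, and 24.0% of all tested genes. Vha100-5 was lower in dsxRNAi females than in dsxRNAi males without overlap (log2 -0.26, 95% interval -0.48 to -0.03, edgeR adjusted p = 0.115).

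In females edgeR called no Vha gene between the dsxRNAi and control groups, where 3.46% of all tested genes were called. There was 1 member with an unadjusted p under 0.05, VhaAC39-2, and DESeq2 called it, against 6.21% of all genes it tested. Ranges were apart for 1 of the 20, against 17.0% of all tested genes. The log2 changes of the shared genes ran from -0.04 to 0.10 with a median of 0.03, and their 95% intervals reached from -0.28 to 0.33. Their median was -0.01 under library totals alone, with 2 of 11 above 0. All genes then had a median of -0.05, and 9 of 11 lay above it. The female effects on the catalytic subunit Vha68-2 (log2 0.04, 95% interval -0.18 to 0.26) and on Vha16-1 (log2 0.00, 95% interval -0.28 to 0.28) were smaller than the spread between libraries.

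In males 2 of the 20 tested members, Vha100-5 and VhaAC39-2, were called higher in the dsxRNAi group. Of all tested genes 14.6% were called, and 8.05% as higher. At an unadjusted p under 0.05 there were 7, and DESeq2 called 5, with Vha14-1, VhaM9.7-b and VhaPPA1-1 added as higher, against 18.5% of all genes it tested. Library totals alone called 6 members, against 33.0% of all tested genes. Ranges were apart for 12 of 20, against 38.6% of all tested genes.

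None of the shared genes was called in males by edgeR, with 5 of 11 at an unadjusted p under 0.05 and 3 called by DESeq2. Their log2 changes were positive for 11 of 11, from 0.12 to 0.25 with a median of 0.19, but under library totals alone the median was -0.06 and 0 of 11 were positive. That scaling moved the median of all genes to -0.27. With TMM scaling 11 of 11 lay above the median of all genes, by 0.21 at their median. A change of scaling moves all genes nearly alike, so this position is 1 observation and does not test the scaling. Leaving out any 1 library of the contrast gave medians from 0.15 to 0.22, with 11 of 11 positive.

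Values of single shared genes show the size. The control male libraries held 210.3, 194 and 185 CPM of Vha14-1, and the dsxRNAi males 229, 250.3 and 223 CPM. The ranges do not overlap, but the log2 change of 0.25 (95% interval 0.07 to 0.44) did not pass (edgeR adjusted p = 0.0684). For VhaPPA1-1 the control males held 406, 379.98 and 376 CPM, and the dsxRNAi males 474, 464 and 441 CPM. Its groups were apart as well (log2 0.25, 95% interval 0.06 to 0.43, edgeR adjusted p = 0.0730). Without control male library 1 these changes were 0.31 (edgeR adjusted p = 0.0673) and 0.28 (edgeR adjusted p = 0.0934). The c ring gene Vha16-1 overlapped between the groups, with means of 4409 ± 451 and 4781 ± 279 CPM (log2 0.12, edgeR adjusted p = 0.585).

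As a part of all deposited counts, the 30 genes took 1.36 ± 0.0352% in control females, 1.35 ± 0.0396% in dsxRNAi females, 1.27 ± 0.0650% in control males and 1.20 ± 0.0497% in dsxRNAi males (SD, n = 3). In normalised CPM their sum was 11910 ± 1011 in control males and 13340 ± 546 in dsxRNAi males. Thus the male groups stand in opposite order on the 2 scales. The TMM factors were lowest in dsxRNAi males, from 0.865 to 0.935. Relative to the geometric mean of the shared genes, which needs no scaling between libraries, Vha100-5 was at 0.979 in control males and 1.29 in dsxRNAi males, with no overlap. On the same relative scale Vha100-2 was at 0.945 in control males and 0.714 in dsxRNAi males, and VhaAC39-2 was 2.65-fold higher in dsxRNAi males. These relative values were added after the data were seen.

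**Figure D4:**
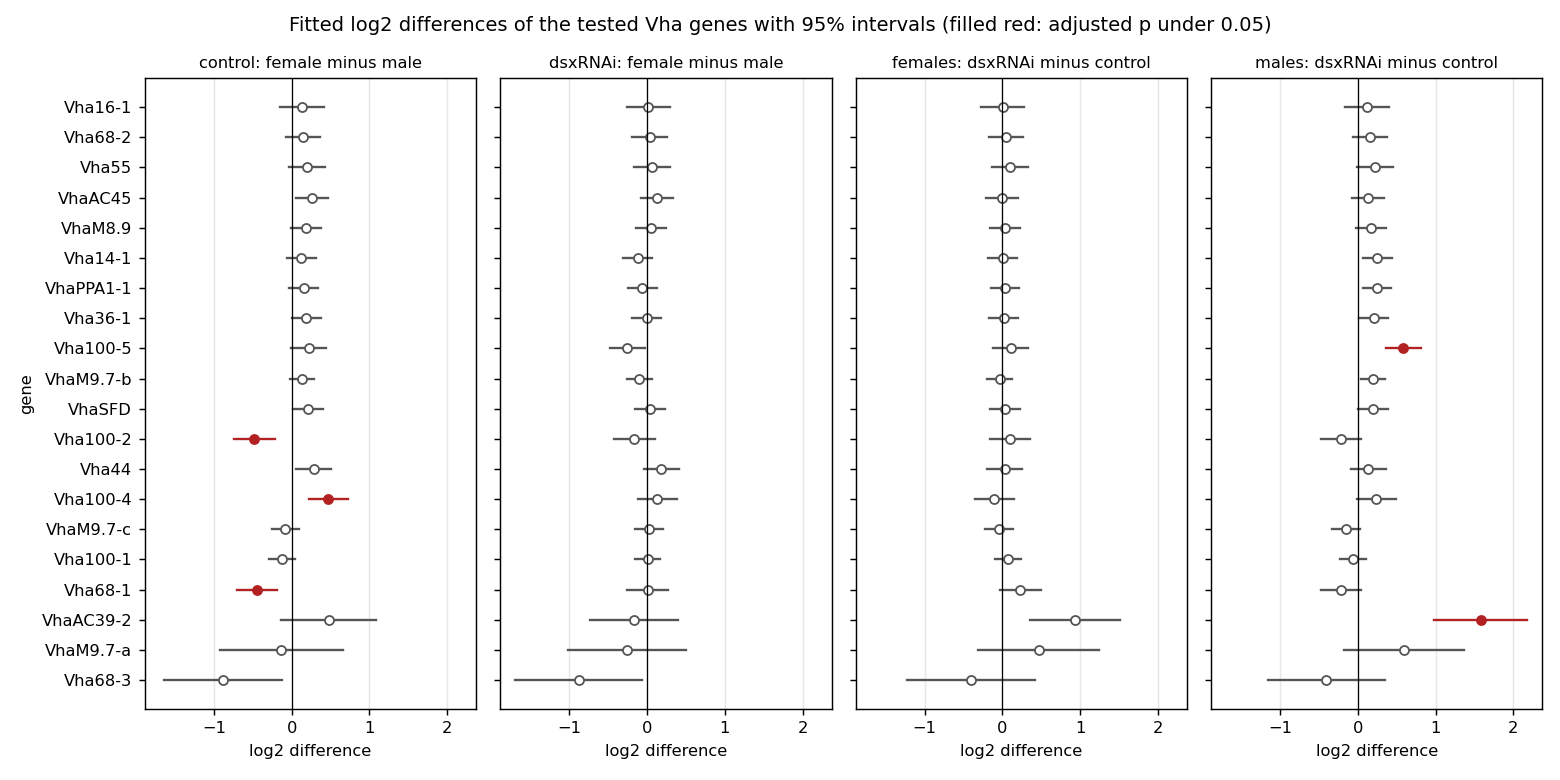
Fitted log2 differences (horizontal axis) of the 20 tested Vha genes (rows) with 95% intervals in 4 contrasts, 1 panel each, with filled red points for genes at an adjusted p under 0.05. Between control sexes 3 genes are red, in males 2, and in the other panels 0. The 11 shared genes lie right of 0 in males. That side turns under scaling by library totals, where all genes have a median of -0.27.

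VhaAC39-2, a paralog of subunit d, which couples the rotor to the c ring (3R, 23158017 to 23159316, minus strand), was a rare transcript that rose in dsxRNAi males. The control male libraries held 0.672, 0.749 and 0.575 CPM, and the dsxRNAi males 2.34, 1.39 and 2.27 CPM. The lowest dsxRNAi library was above the highest control library. The difference was 2.99-fold (log2 1.58, 95% interval 0.98 to 2.18, edgeR adjusted p = 0.00267), and it held without control male library 1 (log2 1.59). The counts behind it were 26 to 83 per library over all groups.

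In females VhaAC39-2 stood at 0.696, 1.23 and 0.857 CPM in controls and at 1.86, 1.82 and 1.64 CPM under dsxRNAi. The ranges did not overlap here either. The log2 change of 0.94 (95% interval 0.35 to 1.52) missed the threshold by edgeR (adjusted p = 0.0876) and passed by DESeq2 (adjusted p = 0.0281), and by edgeR when control female library 2 was left out. The female and male effects differed by -0.65 (95% interval -1.48 to 0.18, edgeR adjusted p = 0.483), so they were not distinguishable.

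The rarest tested paralogs gave no call. For Vha68-3 the control females held 0.326, 0.226 and 0.440 CPM, and the control males 0.672, 0.421 and 0.751 CPM, from 8 to 34 counts per library over all groups (log2 -0.89, 95% interval -1.65 to -0.12, edgeR adjusted p = 0.0971). These ranges overlapped narrowly. VhaM9.7-a, a subunit e paralog, ranged from 0.324 to 0.975 CPM over the 12 libraries, with edgeR adjusted p-values over 0.05 in each contrast. VhaM9.7-c, at 14.6 to 17.9 CPM, varied by 6.65% (coefficient of variation over 12 libraries) and was called in no contrast by edgeR with TMM scaling. Under library totals alone it was called lower in dsxRNAi males (log2 -0.40, edgeR adjusted p = 0.0201), where all genes had a median of -0.27.

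**Figure D5:**
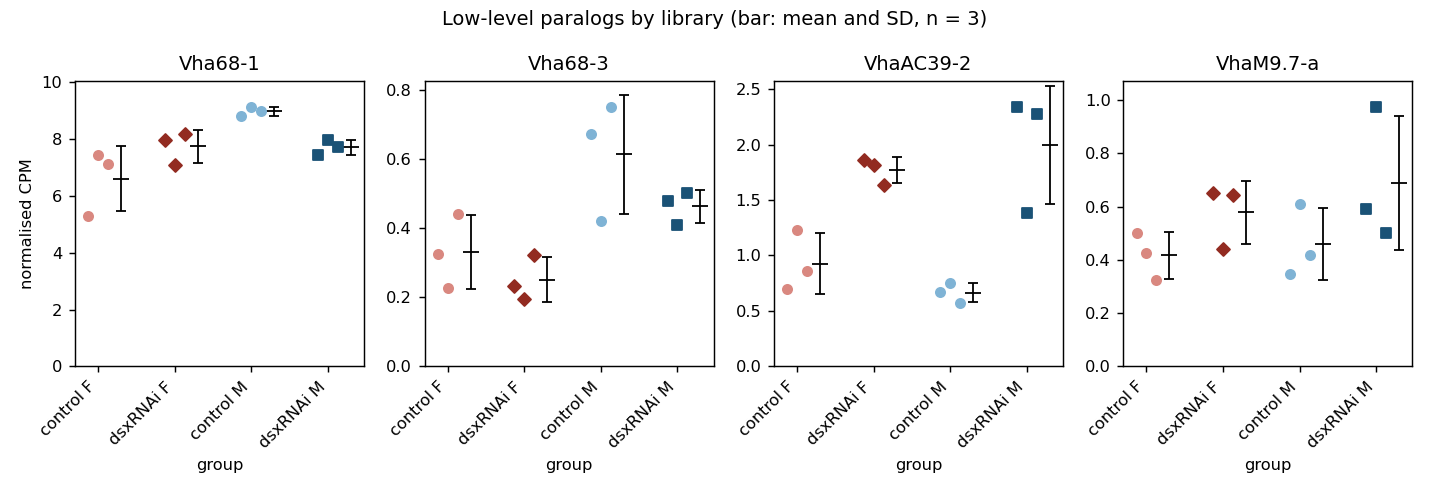
Normalised CPM (vertical axis, from 0) of 4 rare paralogs in each library, by group on the horizontal axis, with the group mean and SD (n = 3) as black bars. VhaAC39-2 is higher in both dsxRNAi groups than in their controls (called in males, adjusted p = 0.0876 in females), and Vha68-1 is highest in control males.

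For the interaction of sex and dsxRNAi, edgeR called 0 of the 20 members, where 0.805% of all tested genes were called. An unadjusted p under 0.05 was found for 3, Vha100-5, Vha68-1 and VhaM9.7-b, and DESeq2 called Vha100-5, against 3.52% of all genes it tested. The log2 values of the 11 shared genes were all below 0, with a median of -0.14, where all genes had a median of 0.02. Under library totals alone 8 of 11 were above 0, with a median of 0.07. All genes then had a median of 0.23, and 0 of 11 lay above it.

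A list of genes that act on or with the pump held 11 tested genes, Tor, Rheb, raptor, RagA-B and RagC-D among them. Of the 11, edgeR called 1 in males, 3 between control sexes and 3 between the sexes under dsxRNAi. The backgrounds were 14.6, 20.0 and 14.8% of all tested genes. Rbcn-3A, a part of the rabconnectin complex that promotes V1 and V0 assembly, fell in dsxRNAi males from 198 ± 9.18 to 114 ± 11.02 CPM (log2 -0.79, edgeR adjusted p = 0.000453). DESeq2 called 2 in males, adding Tor. In females edgeR called 0 of 11, with 1 at an unadjusted p under 0.05 and 0 by DESeq2. For the interaction edgeR called 0, with 2 at an unadjusted p under 0.05 and 1, Rbcn-3A, by DESeq2. Between control sexes, Tor, the growth kinase that is activated at lysosomes (log2 0.25, adjusted p = 0.0194), and its activator Rheb (log2 0.27, adjusted p = 0.0481) were higher in females, the latter no longer called without control male library 1 (adjusted p = 0.131). Rbcn-3B, the partner of Rbcn-3A, was lower (log2 -0.33, adjusted p = 0.0106). Under dsxRNAi, Rbcn-3A (log2 0.77) and Rheb (log2 0.31) were higher in females, and Rbcn-3B was lower (log2 -0.43).

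The carbonic anhydrase and ion transporter genes that differed between control sexes were higher in males. Of 15 listed carbonic anhydrase and related genes, 6 were tested. CAH2 (log2 -1.18, edgeR adjusted p = 5.69e-05), caix (log2 -0.61) and CAH1 (log2 -0.45) were called lower in control females than in control males, and none was called higher, so 3 of 6 were called against 20.0% of all tested genes. CAH2 and caix remained so under dsxRNAi (log2 -0.80 and -0.58). Of 16 ion transporter genes, 3 were lower in control females, namely NKCC, Irk2 and Nhe2, and none was higher, a share near the 20.0% of all tested genes. The calls of these 6 carbonic anhydrases and transporters held without control male library 1. The chloride cotransporter NKCC also fell in dsxRNAi males, from 94.7 ± 5.51 to 50.2 ± 3.41 CPM (log2 -0.92, edgeR adjusted p = 0.000312), with an interaction of 0.98 (adjusted p = 0.0186). Irk2, an inward rectifier potassium channel, fell there too (log2 -0.64). In females under dsxRNAi, edgeR and DESeq2 called 0 carbonic anhydrases and 0 transporters, with 1 and 4 at an unadjusted p under 0.05. In males edgeR called 0 of the 6 carbonic anhydrase and related genes, with 4 at an unadjusted p under 0.05 and 3 by DESeq2. Beside these, enteroendocrine markers were called lower in control females for 4 of 5 genes, neuron markers for 3 of 4 and muscle markers for 2 of 5. Without control male library 1 the calls of Syt1 and elav among the neuron markers and of Mlc1 among the muscle markers were lost. The part of these cell types in the sex differences above was not tested.

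Of 20 listed lysosomal genes, 18 were matched and tested, and calls went both ways. In dsxRNAi against control animals, 1 was lower in females (Gba1b, log2 -2.10). Gba1b was rare, with means of 0.839 CPM in control females and 0.193 CPM in dsxRNAi females. In males 1 was higher (Hexo1, log2 0.38) and 1 lower (CG12163, a cathepsin F, log2 -0.59). Between control sexes 1 was higher in females (Gba1b) and 2 lower (LManI and Ppt1). Without control male library 1, Hexo1 in males (adjusted p = 0.0575) and Gba1b and Ppt1 between control sexes (adjusted p = 0.0586 and 0.0537) were no longer called. Under dsxRNAi, 3 were higher in females than in males (CtsB1, Cp1 and Npc1a) and 3 lower (LManI, Hexo1 and LManII). These counts stand against 3.46% of all tested genes for dsxRNAi in females, 14.6% in males, 20.0% between control sexes and 14.8% under dsxRNAi. DESeq2 called 2, 3, 6 and 9 of the 18 in these contrasts, in the same order. The list's median log2 changes of dsxRNAi against control were 0.04 in females and -0.04 in males.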

How the data were processed

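Poly-A, strand-preserving libraries were made from 200 ng of RNA and read as pairs of 100 bp, per the labels' protocols. The authors deposited raw counts per gene. The submitters' processing notes name TopHat2 2.0.11, featureCounts and build dm6. How strand was counted, which annotation was used and any read filter: not given in the sources used here. Positions and exon lengths come from an Ensembl 115 annotation on dm6 coordinates, which matched all 30 members.

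Counts were analysed in R 4.3.3 with edgeR 4.0.16. The filter on low counts used a minimum of 10, libraries were TMM-scaled, and a robust quasi-likelihood fit had 4 group means over all 12 libraries. Of 5 contrasts, each was adjusted (Benjamini-Hochberg) over 9686 genes and called at 0.05. Fitted log2 changes use a prior count of 0.125. Single values were compared by exact two-sided permutation tests in scipy 1.17.1. DESeq2 1.42.0 and the other settings named in the closing section were alternatives. The fit was tested on simulated counts with known changes in dsxRNAi males. It called 60.6% of changes of size log2 1 and 25.3% of those of size log2 0.5. A gene that was not called may thus still have changed by such an amount. Figures were drawn with matplotlib 3.10.9.

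The members, lists, markers and tests were chosen with earlier results of these data known. Statistics are given for the most abundant paralog of each subunit, all Vha100 genes and each called Vha gene; listed genes are named when called, by p. A few values for other rare paralogs and markers were added after they were seen. Among the tested Vha genes, counting error weighs most on VhaAC39-2, VhaM9.7-a and Vha68-3, which had at most 83, 38 and 34 counts in a library. No batch is given in the labels.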

Additional observations from a re-analysis of the deposited data

How the results depend on the processing

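Calls of Vha100-5 and VhaAC39-2 in males were kept under every alternative run, with log2 values from 0.51 to 0.65 and 1.47 to 1.80 when single libraries were left out. DESeq2 called 1 member for dsxRNAi in females, 5 in males, 5 between control sexes and 1 for the interaction. Scaling by library totals alone, added after the data were seen, called 6 in males, 5 between control sexes, 5 between the sexes under dsxRNAi and 1 for the interaction. Of all 9686 tested genes it called 3199, 1620, 2324 and 251 in these contrasts, in the same order. A threshold of 0.01 left 0 between control sexes. Leaving out 1 library at a time gave 0 to 1 members in females, 2 to 2 in males, 1 to 7 between control sexes, 0 to 0 under dsxRNAi and 0 to 0 for the interaction. A fit of only the control groups lost Vha68-1 (adjusted p = 0.0600). The Vha100-4 share in males, -0.08 points, was 0.064 from counts without length scaling and -0.58 to 0.48 when single libraries were left out; its other differences ranged from -2.12 to -1.76 in females, 4.42 to 5.33 between control sexes and 2.41 to 3.41 under dsxRNAi. Why these values moved was not tested, except that a stricter threshold calls fewer. Replicate numbers did not pair the libraries throughout. Same-numbered pairs correlated at -0.30 to 0.21, with 6 of 18 over 0.1, against 8 of 36 different-numbered pairs. In females 6 of 6 libraries correlated best with their own number, a hint from the data only. In the other contrasts 1 or 2 of 6 did. For dsxRNAi females against control males, which is not a contrast, same-numbered pairs correlated at 0.157, 0.156 and 0.208. Their different-numbered pairs were all negative. With the replicate block the members called were 0 in females, 2 in males, 3 between control sexes, 0 under dsxRNAi and 0 for the interaction, as without it. Scaling by relative log expression, TMM without the 100 most abundant genes, no filter, a minimum count of 50 and dispersion without robust estimation kept the same numbers of calls.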
